A study of Rattus norvegicus with 16 samples.

Results

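T and NK cell markers were followed in rat corneas 2 days after suturing: the CD3 chains *Cd3d*, *Cd3e* and *Cd3g*, the surface proteins *Cd2* and *Cd5*, the coreceptors *Cd8a* and *Cd4*, and the cytotoxic granule genes *Gzmb*, *Prf1* and *Nkg7*. Members were the probe sets whose only gene symbol was 1 of these 10 names. All 10 genes were measured, by 14 of the 31042 probe sets tested and as 10 of 14217 named genes. *Cd8a* had 3 probe sets, *Cd3e* and *Gzmb* had 2 each, and 1 further probe set that joins *Gzmb* with another symbol was assigned to no gene.

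The groups were naïve (non-sutured, untreated) corneas and right corneas with 2 sutures, a stimulus for inflammation and new vessels, that received goat IgG, a rat-specific antibody against VEGF-A (anti-*Vegf*) or dexamethasone as eye drops. Each group had 4 arrays, and all animals were male Wistar rats aged 12 to 16 weeks. Drops were given 4 times a day, 8 in all, and the labels give 20 mg/ml for both antibodies and 1 mg/ml for dexamethasone; the methods of the study give the antibody doses in µg/ml. One sample field calls the IgG group anti-IgG, while the treatment text names goat IgG. No sutured cornea without drops was analysed here, so suture and drops cannot be told apart relative to naïve corneas. The labels describe cornea without scleral rim, the methods a temporal piece between sutures and limbus without the limbal rim, with 1 cornea for each array. Signals are log2 values, and 1 unit is a doubling.

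T cells recognise antigen through a receptor that signals by the CD3 chains, of which CD3δ, CD3γ and CD3ε are the products of *Cd3d*, *Cd3g* and *Cd3e*. CD4 and CD8 bind MHC class II and class I beside that receptor. In rats neither coreceptor is restricted to T cells: macrophages carry CD4 and most NK cells carry CD8α. The granules of cytotoxic T cells and NK cells hold granzyme B (*Gzmb*) and perforin (*Prf1*), which kill target cells, and *Nkg7* encodes a protein of the granule membrane. Glucocorticoids such as dexamethasone act on lymphocytes directly.

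Windows upstream of the 4 genes with a called difference, chosen after the values were seen, are printed to show where the ETS hexamer AGGAAG lies. It is a form of the letters bound by the ETS family of transcription factors, and shorter forms were not searched. *Cd3d*, *Cd3e* and *Cd5* hold the hexamer and *Cd8a* does not. Sequences are the 150 bases before the RefSeq start, from assembly GRCr8, and capitals mark AGGAAG or its reverse complement CTTCCT.
Cd3d (chr8:54185369-54185518, plus strand): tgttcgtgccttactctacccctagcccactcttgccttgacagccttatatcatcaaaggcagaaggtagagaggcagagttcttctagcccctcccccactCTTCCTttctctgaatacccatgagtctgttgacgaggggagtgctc
Cd3e (chr8:54211771-54211920, minus strand): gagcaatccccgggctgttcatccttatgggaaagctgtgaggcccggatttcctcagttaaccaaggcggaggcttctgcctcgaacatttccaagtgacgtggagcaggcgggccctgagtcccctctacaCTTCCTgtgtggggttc
Cd5 (chr1:216811210-216811359, minus strand): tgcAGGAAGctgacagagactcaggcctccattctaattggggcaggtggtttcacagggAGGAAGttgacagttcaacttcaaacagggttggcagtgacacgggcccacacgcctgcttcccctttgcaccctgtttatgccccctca
Cd8a (chr4:104923966-104924115, plus strand): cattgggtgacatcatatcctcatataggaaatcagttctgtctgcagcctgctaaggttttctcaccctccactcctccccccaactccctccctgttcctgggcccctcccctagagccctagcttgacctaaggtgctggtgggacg

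Windows of 250 bases before the RefSeq start were used for 9 of the 10 genes, and that of *Cd4* was not analysed here. On either strand the ETS hexamer was present in 6 of these 9 (*Cd3d*, *Cd3e*, *Cd3g*, *Cd5*, *Prf1* and *Nkg7*), beside 29.5% of all 33469 windows. Its first base lay 47 bases before the start of *Cd3d*, 17 before that of *Cd3e*, 236 before that of *Cd3g*, 147 and 90 before that of *Cd5*, 202 and 113 before that of *Prf1* and 60 before that of *Nkg7*. It was thus present in genes with and without a called difference, and absent from *Cd2*, *Cd8a* and *Gzmb*. The RUNX core TGTGGT was found in 4 (*Cd2*, *Gzmb*, *Prf1* and *Nkg7*), beside 14.5% of all windows, and the E-box CANNTG in 7, beside 65.5%. CCACCC was found in 3 (26.1% of all), and TATAAA (12.9%) and GGGCGG (30.5%) in 1 each. No window held the glucocorticoid hexamer AGAACA (17.5% of all), the full glucocorticoid site GNACA, 3 bases, TGTNC (0.373%), the CRE TGACGTCA (1.59%) or the octamer ATTTGCAT (1.56%). These are matches of letters, AGAACA can form part of the full site, and nothing about factor binding was measured. *Cd3d*, *Cd3e* and *Cd3g* are neighbours on chromosome 8 of the same assembly, so they are not independent loci.

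Most of these markers gave dim signals. The 40th percentile of signal lay between 5.89 and 5.98 on every array, and only 2 of the 14 probe sets exceeded it on at least 4 arrays, *Cd2* on 16 and *Cd4* on 10; 36.7% of all probe sets did not. By gene the mean signals lay between the 11.2 and 48.3 percentiles of all probe sets. In a list of 22 genes of sperm, pancreas, kidney and liver, 3 exceeded the same limit, and in lists of 14 leukocyte, 15 macrophage and 9 neutrophil genes 11, 12 and 7 did. No detection calls come with these values, so a low signal was not shown to be above background, and signals of different probe sets are not relative amounts of RNA. Spiked-in poly-A controls differed between groups: their mean log2 signal was 4.93 to 5.16 in naïve, 6.8 to 7.44 in IgG, 6.75 to 7.02 in anti-*Vegf* and 5.03 to 5.4 in dexamethasone arrays. The 5′ minus 3′ difference of the β-actin controls was −1.75 to −0.82, −0.79 to −0.59, −1.19 to −0.6 and −1.38 to −0.95 in the same order. Array medians stayed between 6.551 and 6.618.

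Relative to naïve corneas, sutured corneas showed a called rise of *Cd8a* in every treatment group by 1 of its probe sets, 1385414_at. That probe set was the brightest of *Cd8a* over all arrays, a choice that includes its own rise. In naïve corneas it was the dimmest, at a mean of 4.1 beside 4.31 for 1369877_at and 4.67 for 1395116_at. Rises under 1.5-fold passed the adjusted p for *Cd2* in all 3 treatment groups, for *Cd3g* with IgG and anti-*Vegf* and for *Cd3d* with IgG. *Cd3e*, *Cd5*, *Cd4*, *Gzmb*, *Prf1* and *Nkg7* did not pass it relative to naïve corneas. A probe set was called at a limma adjusted p under 0.05 with a change of at least 1.5-fold, the limits of the study for DEGs. In the IgG group 2 of 14 probe sets were called higher (background 5.26% of all probe sets), in the anti-*Vegf* group 1 (5.29%) and in the dexamethasone group 1 (5.41%), and none was lower. By adjusted p alone 5 of 14 were higher with IgG (11.7% of all), 3 with anti-*Vegf* (11.8%) and 2 with dexamethasone (10.8%). All treated arrays lay above all naïve arrays for 8 of 14 with IgG (12.9% of all probe sets), 5 with anti-*Vegf* (12.1%) and 1 with dexamethasone (11.0%). With dexamethasone 1 further probe set, of *Cd5*, lay wholly below the naïve arrays (11.0% of all). The median change of the 14 was 0.20, 0.13 and −0.01 beside medians of −0.01, −0.02 and −0.02 over all probe sets. These comparisons share the naïve arrays. More cells of a type and more RNA per cell cannot be told apart in whole tissue.

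**Figure D1:**
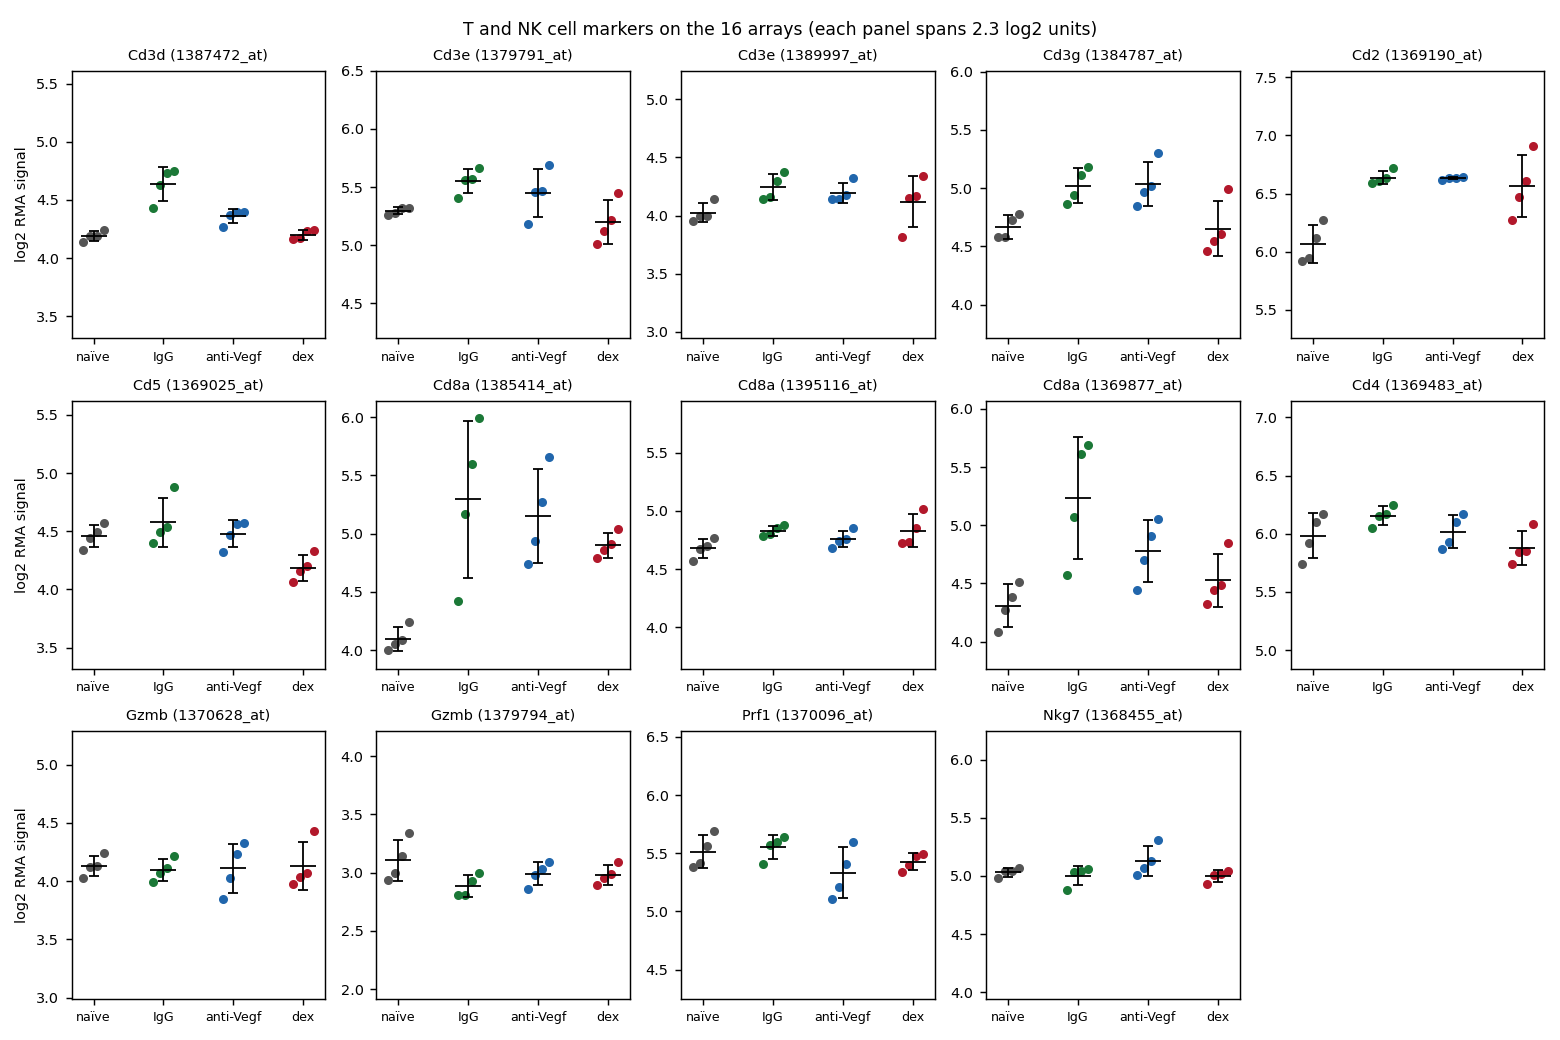
Log2 signal of the 14 probe sets (y axis; every panel spans the same range) in 4 naïve, 4 IgG, 4 anti-Vegf and 4 dexamethasone (dex) arrays; points are arrays, ordered by value, and bars are mean ± SD. Cd8a probe set 1385414_at lies between 4.42 and 5.99 in IgG arrays and between 4 and 4.24 in naïve arrays, whereas Gzmb, Prf1 and Nkg7 overlap in all groups.

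*Cd8a*, the α chain of CD8, had the largest change and its probe sets disagreed. Probe set 1385414_at read 4.09, 4.00, 4.24 and 4.05 in naïve arrays 1 to 4, and 4.42, 5.17, 5.99 and 5.60 in IgG arrays F17, F19, F22 and F23. Anti-*Vegf* arrays F1x, F2, F6 and F7 read 5.27, 4.74, 5.66 and 4.94, and dexamethasone arrays F25, F26, F27 and F30 read 4.91, 4.86, 4.79 and 5.04. Every sutured array exceeded every naïve array, and IgG array F17 was the lowest of the sutured corneas. The log2 change was 1.20 (SE 0.25, limma adjusted p = 0.00222) with IgG, 1.06 (SE 0.25, adjusted p = 0.00514) with anti-*Vegf* and 0.80 (SE 0.25, adjusted p = 0.0297) with dexamethasone. The dexamethasone call was lost on leaving out array F25, F26 or F30 or naïve array 1, 2 or 4, with changes of 0.757 to 0.816 and adjusted p of 0.0536 to 0.0718.

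Probe set 1369877_at of *Cd8a* read 4.27, 4.51, 4.08 and 4.38 in naïve arrays and 4.57, 5.07, 5.69 and 5.61 in IgG arrays. It read 5.05, 4.44, 4.91 and 4.70 with anti-*Vegf* and 4.32, 4.44, 4.49 and 4.85 with dexamethasone. Here the IgG arrays alone were clear of the naïve arrays: the change was 0.92 (SE 0.21, limma adjusted p = 0.00351) with IgG, 0.46 (adjusted p = 0.114) with anti-*Vegf* and 0.21 (adjusted p = 0.538) with dexamethasone. The third probe set, 1395116_at, ranged from 4.57 to 4.77 in naïve and from 4.68 to 5.02 in sutured corneas. Its changes of 0.15, 0.08 and 0.16 were not called (95% intervals −0.01 to 0.31, −0.08 to 0.25 and −0.01 to 0.32). Which of the 3 represents *Cd8a* RNA was not tested.

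The 5 genes with changes relative to naïve most like those of *Cd8a* 1385414_at, among 14217 genes, were *Cd93*, *Nfkb1*, *Ckmt1*, *Gngt2* and *Sash3*, with root mean square differences of 0.04 to 0.057 over the 3 comparisons. *Sash3* encodes an adaptor of lymphocyte signalling, and *Cd93* a surface protein of endothelial and myeloid cells. *Sash3* changed by 1.22, 0.96 and 0.82 and *Cd93* by 1.19, 0.99 and 0.77 with IgG, anti-*Vegf* and dexamethasone. Within a difference of 0.1 lay 17 genes.

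*Cd2*, an adhesion receptor of T and NK cells, read 5.95, 6.27, 5.92 and 6.12 in naïve arrays and 6.72, 6.59, 6.63 and 6.61 in IgG arrays. Anti-*Vegf* arrays read 6.63, 6.62, 6.63 and 6.64, and dexamethasone arrays 6.27, 6.47, 6.61 and 6.91. All IgG and anti-*Vegf* arrays were above the naïve arrays, while dexamethasone array F25 met naïve array 2. The changes of 0.57 (SE 0.11, limma adjusted p = 0.00131), 0.57 (SE 0.11, adjusted p = 0.00135) and 0.50 (SE 0.11, adjusted p = 0.00393) were under 1.5-fold.

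*Cd3d* read 4.19, 4.24, 4.19 and 4.14 in naïve, 4.73, 4.75, 4.63 and 4.43 in IgG, 4.27, 4.40, 4.40 and 4.37 in anti-*Vegf*, and 4.16, 4.23, 4.17 and 4.24 in dexamethasone arrays. IgG arrays lay above all others, and the dexamethasone arrays lay within the naïve range or at its upper edge. With IgG it rose by 0.44 (SE 0.07, limma adjusted p = 0.000395), and the changes with anti-*Vegf* and dexamethasone were 0.17 (adjusted p = 0.111) and 0.01 (adjusted p = 0.945). *Cd3g* read 4.58, 4.73, 4.58 and 4.78 in naïve, 4.86, 5.18, 4.94 and 5.11 in IgG, 4.97, 5.02, 5.30 and 4.85 in anti-*Vegf*, and 4.46, 4.55, 4.61 and 4.99 in dexamethasone arrays. It rose by 0.35 (SE 0.12, adjusted p = 0.0387) with IgG and by 0.37 (SE 0.12, adjusted p = 0.0324) with anti-*Vegf*, and changed by −0.02 (adjusted p = 0.95) with dexamethasone, where array F30 alone exceeded the naïve arrays. The *Cd3g* rise with IgG missed the threshold without IgG array F19, F22 or F23 or naïve array 1, 2 or 3 (adjusted p of 0.0534 to 0.11), and with the ordinary model (0.0563). That with anti-*Vegf* missed it without anti-*Vegf* array F2 or F6 or naïve array 1 or 3 (0.0543 to 0.118). Centring on reference genes also ended both, at 0.0644 and 0.0713.

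*Cd3e* probe set 1379791_at read 5.26, 5.28, 5.32 and 5.32 in naïve, 5.66, 5.57, 5.56 and 5.41 in IgG, 5.46, 5.47, 5.69 and 5.18 in anti-*Vegf*, and 5.01, 5.12, 5.22 and 5.45 in dexamethasone arrays. The IgG arrays were above the naïve arrays, but the change of 0.26 missed the threshold (SE 0.11, limma adjusted p = 0.0872). The second probe set, 1389997_at, changed by 0.22 (adjusted p = 0.106), 0.17 (adjusted p = 0.215) and 0.10 (adjusted p = 0.549). *Cd5*, a T cell surface protein that dampens receptor signals, read 4.57, 4.34, 4.49 and 4.44 in naïve, 4.54, 4.40, 4.49 and 4.88 in IgG, 4.56, 4.57, 4.47 and 4.32 in anti-*Vegf*, and 4.16, 4.06, 4.20 and 4.33 in dexamethasone arrays. All dexamethasone arrays lay below the naïve arrays, with a change of −0.28 (SE 0.10, adjusted p = 0.0618).

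*Cd4* ranged from 5.74 to 6.17 in naïve, 6.05 to 6.25 in IgG, 5.87 to 6.17 in anti-*Vegf* and 5.74 to 6.08 in dexamethasone arrays, and its groups overlapped. Its changes relative to naïve corneas were 0.17, 0.04 and −0.10, with 95% intervals of −0.04 to 0.39, −0.18 to 0.25 and −0.32 to 0.12. The granule genes were not called either. *Gzmb* 1370628_at changed by −0.03, −0.02 and 0.00, *Prf1* by 0.04, −0.18 and −0.09, and *Nkg7* by −0.03, 0.10 and −0.03. The widest of their 95% intervals with IgG was −0.27 to 0.21, for *Gzmb*. The second *Gzmb* probe set, 1379794_at, lay at the 0.7 percentile and changed by −0.22, −0.11 and −0.13.

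**Figure D2:**
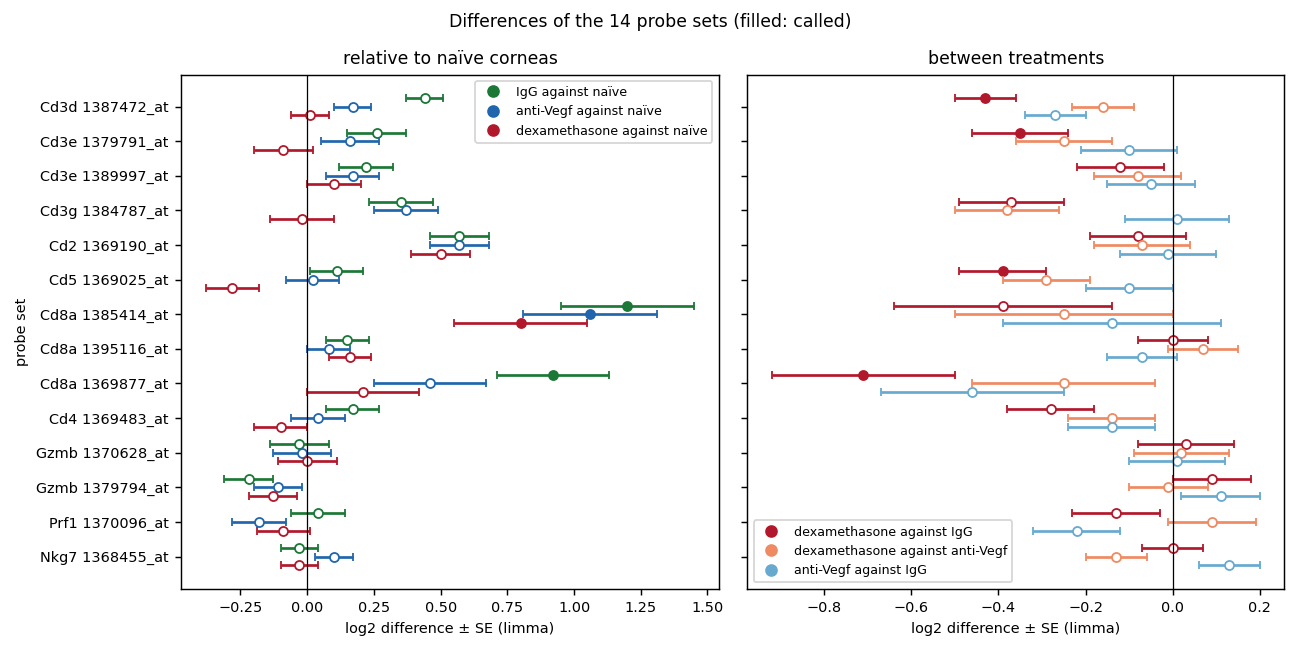
Log2 difference ± SE of each of the 14 probe sets (x axis), relative to naïve corneas on the left and between treatments on the right, from limma over 16 arrays; filled points were called. Called rises on the left belong to Cd8a alone, and the 4 called differences on the right are all lower with dexamethasone than with IgG.

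The rises under 1.5-fold stand beside 2 genes of the list of other tissues, named after their values were seen. *Ins1* (insulin) and *Pnlip* (pancreatic lipase) rose by 0.32 (SE 0.08, limma adjusted p = 0.0092) and 0.30 (SE 0.08, adjusted p = 0.0112) with IgG and by 0.28 and 0.24 with anti-*Vegf*, and changed by 0.01 and 0.01 with dexamethasone. They were the only 2 of 22 genes of that list past the adjusted p with IgG and with anti-*Vegf*, and none passed with dexamethasone. The poly-A controls were high in the same 2 groups. Their part in the changes of *Cd2*, *Cd3d* and *Cd3g* was not tested.

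Between treatments, dexamethasone corneas had lower signals than IgG corneas for *Cd3d*, *Cd5*, 1 of 2 probe sets of *Cd3e* and 1 of 3 of *Cd8a*. At an adjusted p under 0.05 with no fold limit, 4 of 14 probe sets were lower (background 4.56% of all probe sets and 2.76% of the dim ones) and none was higher. *Cd3d* fell by 0.43 (SE 0.07, limma adjusted p = 0.00206), from a mean of 4.63 to 4.20, and *Cd5* fell by 0.39 (SE 0.10, adjusted p = 0.0228), from 4.58 to 4.19. For these 2 of 14 probe sets the dexamethasone arrays lay below all IgG arrays (7.81% of all were lower and separate). *Cd8a* 1369877_at fell by 0.71 (SE 0.21, adjusted p = 0.0401), from 5.23 to 4.52, with IgG array F17 inside the dexamethasone range. *Cd3e* 1379791_at fell by 0.35 (SE 0.11, adjusted p = 0.0492), from 5.55 to 5.20. *Cd3g* differed by −0.37 (adjusted p = 0.0631), *Cd4* by −0.28 (adjusted p = 0.104) and *Cd8a* 1385414_at by −0.39 (adjusted p = 0.358). *Cd3e* 1389997_at differed by −0.12 (adjusted p = 0.469) and *Cd8a* 1395116_at by 0.00 (adjusted p = 0.98). By the brightest probe set of each gene 3 of 10 were lower, *Cd3d*, *Cd5* and *Cd3e*. The median difference of the 14 was −0.20, beside 0.00 for all probe sets.

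Several of these calls were lost on leaving out 1 array. The *Cd3d* call held on leaving out any array. The *Cd5* call was lost without IgG array F23 or dexamethasone array F26 or F27 (adjusted p of 0.0502 to 0.0721). The *Cd8a* call was lost without anti-*Vegf* array F7, IgG array F19, F22 or F23, or dexamethasone array F25, F26 or F27 (adjusted p of 0.0507 to 0.122). The *Cd3e* call was lost without any 1 of 12 arrays, to an adjusted p of up to 0.132 without dexamethasone array F25. Some of these arrays were outside this comparison: without naïve array 1 the *Cd3e* difference stayed at −0.349. Likewise the *Cd8a* difference stayed at −0.708 without anti-*Vegf* array F7. The count of 4 fell to 2 without IgG array F19, F22 or F23 or dexamethasone array F25, and to 1 without F26 or F27. *Ins1* and *Pnlip* were also lower with dexamethasone than with IgG, by −0.31 (adjusted p = 0.0265) and −0.29 (adjusted p = 0.0297), 2 of 22 genes of that list, and the poly-A controls were lower in the dexamethasone arrays. Their part in the differences of the CD3 genes, *Cd5* and *Cd8a* was not tested.

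Dexamethasone and anti-*Vegf* corneas gave no called difference among the 14 probe sets, where 3.31% of all probe sets were lower (3 at an unadjusted p under 0.05 and 0 by an ordinary linear model). The smallest limma adjusted p was 0.0675, for *Cd3g*, at −0.38 (95% interval −0.64 to −0.13). Leaving out IgG array F23 or dexamethasone array F30 gave 1 call. Anti-*Vegf* and IgG corneas gave none either, in a comparison where 0.0% of all probe sets passed (3 members at an unadjusted p under 0.05 and 0 by an ordinary linear model). The smallest limma adjusted p was 0.368, and the differences lay between −0.46 and 0.13.

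Dexamethasone arrays were not alike. F30 was the highest of its group in 10 of 14 probe sets and F25 the lowest in 10. *Ptprc*, which encodes CD45 of all leukocytes, read 6.62 in F25 and 8.37, 8.02 and 7.50 in F26, F27 and F30, so the array with the lowest markers also had the least *Ptprc*, while the array with the highest markers did not have the most. In IgG, F17 was the lowest in 7 of 14, and in anti-*Vegf*, F6 was the highest in 7.

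Each marker was also set beside *Ptprc* on the same array. *Ptprc* was 4.04 to 4.25 in naïve, 7.27 to 8.22 in IgG, 7.68 to 8.40 in anti-*Vegf* and 6.62 to 8.37 in dexamethasone arrays, rising by 3.55 (SE 0.30, limma adjusted p = 6.43e-07), 3.78 and 3.47. The log2 signal of each marker gene minus that of *Ptprc* on the same array changed by −3.58 to −2.35 with IgG, −3.96 to −2.72 with anti-*Vegf* and −3.75 to −2.67 with dexamethasone. In these comparisons the arrays did not overlap for any of the 10 genes. *Ptprc* by itself separated naïve from sutured arrays, so a marker without change separates too. *Gzmb* and *Nkg7*, each with a change of −0.03 with IgG, did so. For each of the 10 genes the exact permutation p was 0.0286, the smallest that 4 against 4 arrays can give. After Benjamini-Hochberg adjustment over 60 tests it was 0.0571, so none passed. As *Ptprc* sets this separation, neither value tells the markers apart. Between treatments this difference ranged from −0.50 to 0.39, with a smallest exact permutation p of 0.143 (adjusted 0.276). *Ptprc* is among the leukocyte genes that rose most: the list of 14 leukocyte genes had median changes of 0.84, 0.66 and 0.68. Of the 10 genes *Cd8a* changed most, by probe set 1385414_at, its brightest over all arrays but its dimmest in naïve corneas. That probe set exceeded these medians (1.20, 1.06 and 0.80 with IgG, anti-*Vegf* and dexamethasone). *Cd8a* probe set 1369877_at exceeded the median with IgG alone (0.92, 0.46 and 0.21). Probe set 1395116_at stayed below it in every group (0.15, 0.08 and 0.16). A dim probe set can register only part of a change, which limits these differences.

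**Figure D3:**
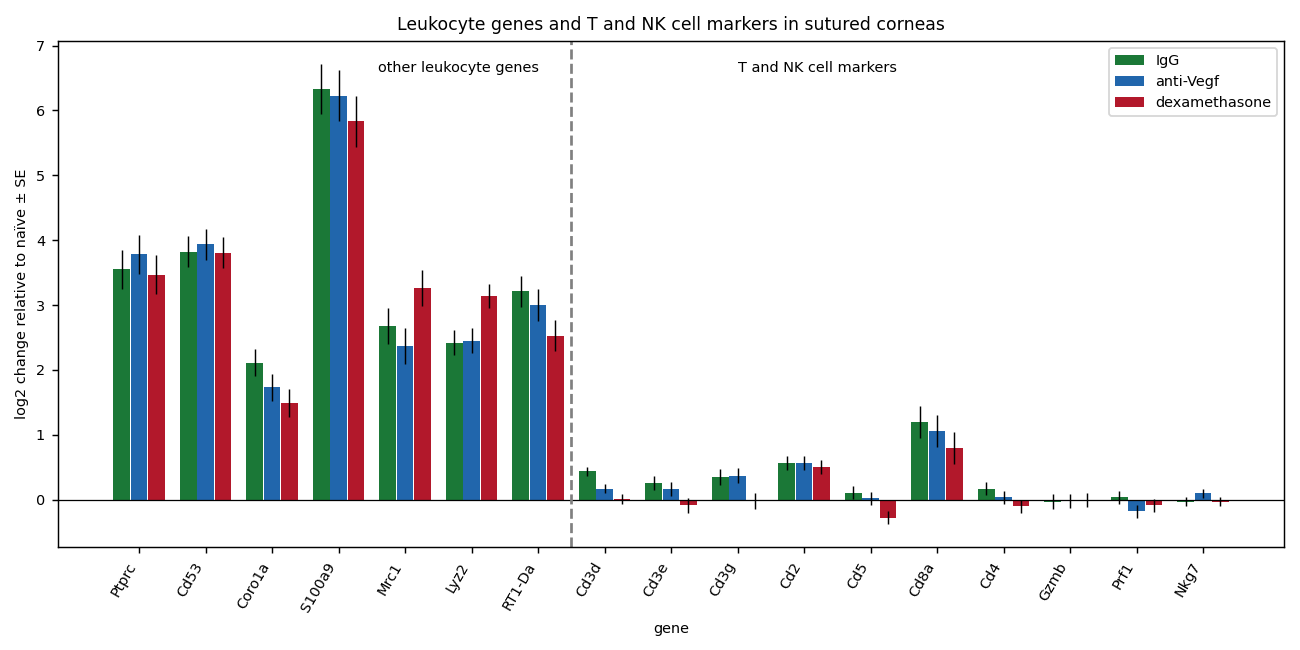
Log2 change relative to naïve corneas (y axis; bars start at 0, error bars are SE from limma) of 7 other leukocyte genes, left of the dashed line, and of the 10 T and NK cell markers, each by its brightest probe set, in IgG, anti-Vegf and dexamethasone corneas. Ptprc rose by 3.47 to 3.78 and S100a9 by 5.83 to 6.33, and the largest marker change was 1.20, for Cd8a. The Cd8a probe set shown, 1385414_at, was its brightest over all arrays and its dimmest in naïve corneas. Apart from Ptprc, the genes on the left were picked for large called changes in their lists, while all 10 markers are shown. The whole list of 14 leukocyte genes had median changes of 0.84, 0.66 and 0.68.

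Markers of several other leukocyte types, but not of all, were also higher in sutured corneas. Of 9 neutrophil genes 7 were called higher in every sutured group, led by *S100a9*, a calcium-binding protein of neutrophils and monocytes, at 6.33, 6.23 and 5.83. Of 15 macrophage genes 10, 9 and 8 were called higher with IgG, anti-*Vegf* and dexamethasone, led by *Mrc1* (the mannose receptor) at 2.68 and 3.26 with IgG and dexamethasone and by *Lyz2* (lysozyme) at 2.45 with anti-*Vegf*. The median signal of the macrophage list was 5.53 to 6.02 in naïve, 6.7 to 7.74 in IgG, 7.15 to 7.65 in anti-*Vegf* and 6.7 to 7.35 in dexamethasone arrays. Of 11 dendritic cell and MHC class II genes 7, 7 and 6 were called, led by *RT1-Da* at 3.21, 3.00 and 2.53. Of 8 B cell genes none was called with IgG or anti-*Vegf* and *Fcrla* alone with dexamethasone (0.83). Of 10 mast cell and basophil genes none was called higher in any group, and *Kit* was called lower with dexamethasone. As macrophages and dendritic cells of rats can carry CD4 or CD8α, these values bear on *Cd4* and *Cd8a*, and their part was not tested.

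Other genes of T and NK cells were followed in 7 lists with 102 measured genes, written with earlier results of these data known. Relative to naïve corneas 20, 18 and 17 genes were called higher with IgG, anti-*Vegf* and dexamethasone, where 6.32%, 6.82% and 8.19% of all genes were. Lower were 2, 2 and 3, where 5.02%, 5.94% and 4.45% of all genes were. Many of the genes called higher are also made by myeloid or other cells.

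Of 18 genes of the T cell receptor complex and its signalling, 4, 3 and 3 were called higher. These were *Coro1a*, an actin regulator of all leukocytes that also stands in the leukocyte list, at 2.11, 1.73 and 1.49, the adaptor *Fyb1* at 1.20, 1.12 and 1.33, the kinase *Fyn* at 0.81, 0.81 and 1.32, and the adaptor *Lcp2* with IgG at 0.62. Of 13 granule genes 4, 4 and 3 were called, among them *Srgn*, the granule proteoglycan serglycin, at 3.66, 3.65 and 3.94, *Cst7* at 1.49, 1.41 and 0.98, and *Stx11*, a fusion protein of granules, at 1.19, 1.23 and 1.17. Of 15 NK receptor and adaptor genes 3 were called in each group, all signalling adaptors that myeloid cells share: *Fcer1g* at 3.06, 3.11 and 3.24, *Tyrobp* at 1.92, 1.90 and 2.08, and *Hcst* at 1.44, 1.30 and 1.05. No receptor of that list was called.

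Of 11 transcription factor genes 3, 3 and 2 were called higher and 2, 2 and 3 lower. *Ets1* rose by 2.97, 2.93 and 2.95, *Bcl11b* by 0.68, 0.67 and 0.88, and *Runx3* by 0.87 with IgG and 0.79 with anti-*Vegf*. *Satb1* fell by 0.73, 0.78 and 0.89 and *Tox* by 0.62, 0.74 and 0.69, and *Id2* fell by 0.61 with dexamethasone. Of 16 costimulation and adhesion genes only *Cd96* was called, at 1.39 with anti-*Vegf* and 1.21 with dexamethasone. Of 11 cytokine and cytokine receptor genes only *Il2rg*, the common γ chain, was called, at 0.82 with IgG. Of 18 chemokines and receptors that attract T and NK cells 5, 4 and 5 were called, among them *Ccl20* at 1.82, 1.58 and 1.33 and *Cxcl16* at 1.16, 1.30 and 1.39. *S1pr1* (1.29) and *Ccl19* (1.16) were called with IgG, and *Cxcl10*, a ligand of CXCR3, with anti-*Vegf* (0.94) and dexamethasone (1.14).

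**Figure D4:**
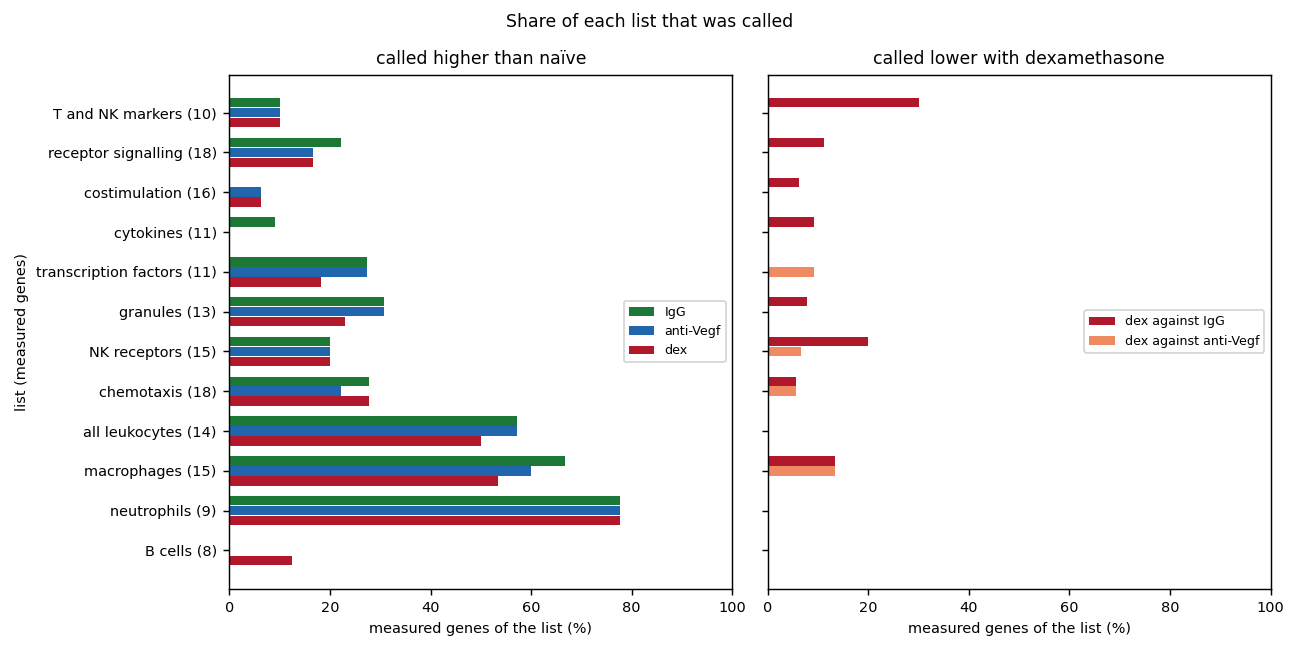
Share of the measured genes of each list (x axis, percent; number of measured genes in brackets) called higher than naïve in 3 treatment groups, left, and called lower with dexamethasone (dex), right. Neutrophil, macrophage and leukocyte lists reach 50% or more on the left, and the T and NK marker list is at 10% on the left and at 30% on the right against IgG.

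Between treatments, 9 of the 102 genes were called lower with dexamethasone than with IgG and 1 higher, where 3.16% of all genes were lower and 7.41% higher. In the list of sperm, pancreas, kidney and liver genes 2 of 22 (9.1%) were lower. The lower genes of the 102 included the activating NK receptors *Klrk1* (−0.40), *Ncr1* (−0.37) and *Ncr3* (−0.34), the costimulatory receptor *Cd28* (−0.35), *Il2rg* (−0.46), the exchange factor *Rasgrp1* (−0.47), *Ptprcap*, which associates with CD45 (−0.35), *Cst7* (−0.52) and the chemokine receptor *Ccr6* (−0.52). The whole list of 15 NK receptor and adaptor genes had a median difference of −0.03. *Ccl3* was higher (0.62). Relative to anti-*Vegf*, 3 were lower, *Klrk1* (−0.32), *Ccr6* (−0.45) and *Id2* (−0.57), and *Tcf7* was higher (0.41), where 2.5% and 4.63% of all genes were. No gene of these lists was called between anti-*Vegf* and IgG. Of the 9 genes lower than with IgG, 5 (*Rasgrp1*, *Ncr1*, *Ncr3*, *Il2rg* and *Ccr6*) had means below the 40th percentile limit in both groups.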

How the data were processed

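Total RNA of rat corneas was hybridised to Affymetrix 3′ expression arrays, 16 in 4 groups of 4, with groups taken from the treatment labels. The log2 signals deposited by the authors were made with RMA in Affymetrix Expression Console (background correction, normalization between arrays, summary per probe set). RMA takes no detection call and compresses differences of dim probe sets. Of 31099 probe sets 57 controls were left out. In the platform annotation 20826 had 1 gene symbol, 436 several and 9780 none. Of those with 1 symbol, 20758 had a gene identifier found in RefSeq, and among these no symbol differed from it. The brightest probe set over all arrays stood for a gene, so a rise in sutured corneas can decide which probe set is used.

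Groups were compared with limma 3.58.1 in R 4.3.3 (1 mean per group, 12 residual degrees of freedom, Benjamini-Hochberg adjustment over 31042 probe sets). Precision is limited by 4 arrays a group. Marker signals minus that of *Ptprc* on the same array were compared between groups by two-sided exact permutation tests of the mean difference (Python 3.11.15). Scripts were tested on simulated data. All members were named; of other T and NK lists, the 3 called genes with the largest changes in each comparison, and of cell type lists the largest called change, plus other genes where a count was explained. The members and lists were chosen with earlier results of these data known. Alternatives were an ordinary linear model, trended robust moderation, array weights, only the groups compared, centring on 7 measured reference genes, cyclic loess, a filter on dim probe sets, other fold limits, unadjusted p, genes instead of probe sets, and leaving out each array.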

Additional observations from a re-analysis of the deposited data

Results flagged for a closer look

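1 of 56 groups of 4 arrays was marked by an array far from the other 3, where chance marks about 1 in 20 groups. *Nkg7* read 4.88 in IgG array F17 and 5.03 to 5.06 in the other IgG arrays. F17 was also the lowest IgG array in 7 of 14 probe sets.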

How the results depend on the processing

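All 14 differences of single probe sets past the adjusted p kept their direction under all alternatives that gave a value. Counts of called probe sets moved as follows, and the cause was not tested except where the setting itself removes probe sets. The filter on dim probe sets kept only *Cd2* and *Cd4* and left 0 calls relative to naïve corneas in each group and 0 for dexamethasone relative to IgG. Without the fold limit the counts relative to naïve were 5 with IgG, 3 with anti-*Vegf* and 2 with dexamethasone, and by genes the IgG count was 1. Cyclic loess gave 2 for anti-*Vegf* relative to naïve and 1 for dexamethasone relative to anti-*Vegf*. For dexamethasone relative to naïve, the ordinary linear model and array weights each gave 0. For dexamethasone relative to IgG, the ordinary model gave 2, a fit of only those groups 1 and a fold limit of 1.5 gave 1. Unadjusted p under 0.05 gave 3 for dexamethasone relative to anti-*Vegf* and 3 for anti-*Vegf* relative to IgG. Leaving out 1 array gave 2 to 3 calls for IgG, 1 to 2 for anti-*Vegf* (2 without naïve array 2 or 4) and 0 to 1 for dexamethasone relative to naïve. It gave 1 to 5 for dexamethasone relative to IgG, 0 to 1 relative to anti-*Vegf*, and 0 to 0 for anti-*Vegf* relative to IgG. No paired analysis was possible because the groups share no replicate numbers. Dim signals and 4 arrays a group limit all counts.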
